A study of Mus musculus with 25 samples.

Results

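Differentiating spermatogonia are described here by the cells that the authors' deposited cell table assigns to the cluster Diff_SGs. They number 1997 of 4528 cells from testes of mice at postnatal day 10, sorted for a 4N DNA content, which cells have after replication and through early meiosis. The cluster held 654 of 1151 cells of the wild-type (WT) library, 529 of 1522 cells of a first Ythdc2 knockout (KO) library, here KO A, and 814 of 1855 cells of a second, here KO B. These counts correspond to shares of 56.8% in WT (exact binomial 95% interval 53.9 to 59.7), 34.8% in KO A (32.4 to 37.2) and 43.9% in KO B (41.6 to 46.2), with intervals that cover counting error only. The KO libraries come from a Ythdc2 knockout mouse line that the labels describe as made earlier. No source used here gives the part of the gene that it lacks. A hybrid background of C57BL/6 and DBA/2 is stated for the other Ythdc2 mutant lines of the study. The titles of the samples hold the word embryo, while the age label is P10, and the age label was followed. No source used here says whether the libraries came from separate animals or pools, so that every p-value below measures the spread between libraries, which may be technical. KO A and KO B follow the sample numbers in the cell table, which do not tie either to a particular KO sample.

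Spermatogonia that have committed to differentiate carry the receptor KIT, divide several times under the influence of retinoic acid and then enter meiosis, when STRA8 and MEIOSIN switch on meiotic genes. YTHDC2 is a cytoplasmic RNA helicase with a YTH domain, which can bind N6-methyladenosine (m6A) in RNA. It acts with MEIOC, RBM46 and the exonuclease XRN1 and is known for being needed by germ cells to leave the mitotic programme and carry out meiotic prophase.

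Depth in the cluster was 9701393, 6211462 and 11229261 UMIs (counted RNA molecules) in WT, KO A and KO B. The median cell held 14305.5, 9669 and 11798 UMIs in that order, and the median mitochondrial share was 5.68%, 9.79% and 7.03%, highest in KO A. No cell barcode was shared between the libraries, and a comparison of the KO sums over 12353 genes gave a chi-square of 8.40 per degree of freedom, so that KO A and KO B were counted as 2 libraries. Scrublet called 2, 0 and 3 cells of the cluster doublets, and these were kept. Markers of somatic cells of the testis were low. In CPM (UMIs scaled to the same total in each library) the 6 measured Sertoli markers summed to 7.94, 7.89 and 9.98. The 6 peritubular myoid markers summed to 1.96, 1.61 and 1.78. The stromal sum was 4.64, 5.96 and 6.15 CPM, with Dcn at 0 in every library. Endothelial markers summed to 47.4, 43.5 and 47.2 CPM, nearly all from Egfl7. Of 13 measured genes of undifferentiated spermatogonia, Gfra1 was at 0 in all 3 libraries and the list summed to 33.4, 56.9 and 53.4 CPM. Markers of leptotene-zygotene cells were not low, at 2916, 1901 and 2110 CPM, and those of pachytene cells summed to 121, 98.8 and 99.4 CPM. A single KO A cell held 2748 of the 2756 globin UMIs of that library's share of the cluster. The counts of called genes, Stra8 and the gene lists that change are given with and without it.

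The cluster's name was set against 4 markers, the stem cell factor receptor Kit and the genes of the transcription regulators Sohlh1, Dmrtb1 and Stra8. Dmrtb1 was the clearest of them. It reached 201, 287 and 236 CPM in WT, KO A and KO B, against 22.6, 101 and 108 CPM in the other cells of the same library, which gives 8.57-fold, 2.83-fold and 2.19-fold with a pseudocount of 1 CPM. After every cell was thinned to 5000 UMIs, 59.3%, 71.5% and 65.5% of Diff_SGs cells held a Dmrtb1 UMI, compared with 6.67%, 10.6% and 3.33% of the cells the authors call undifferentiated (85.5%, 89.2% and 88.2% of Diff_SGs cells without thinning). The 2 mixed clusters of the KO libraries came closer, with 45.4% and 53.3% in Diff_L_Z_SGs1 and 38.2% and 40.8% in Diff_L_Z_SGs2 of KO A and KO B. The WT leptotene-zygotene cells, which should hold little of it, gave 7.96%.

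Kit was at 58.9, 102 and 90.3 CPM in the cluster and at 25.3, 70.9 and 70.0 CPM in the remaining cells, a 2.28-fold, 1.44-fold and 1.29-fold difference. Sohlh1 was 2.01-fold higher in the cluster than outside it in WT, and stood at 0.909-fold and 0.794-fold in KO A and KO B. Stra8, whose levels were 329, 451 and 568 CPM, was lower in the cluster than outside it in each library (1406, 1540 and 1499 CPM). Dmrtb1 and Kit were thus above the pooled other cells of each library, whereas Sohlh1 and Stra8 were not in all 3. For Kit this did not hold against every cluster: Diff_L_Z_SGs1 stood at 88.0 CPM in KO A and 92.6 CPM in KO B, the latter above Diff_SGs of the same library. Ccnd2, a cyclin of undifferentiated cells, was seen in 0.459%, 1.32% and 1.72% of Diff_SGs cells and in 60%, 80.3% and 78.9% of undifferentiated cells.

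By fold over the other cells of the same library, taking the lowest of the 3 folds and genes with at least 20 CPM in each library's cluster, the 10 leading genes were Ccng1, Cpne2, Plk5, Ppp1r14a, Gm1141, Ccnd1, Nudt22, Miip, Arap2 and Gatsl2. Because the clusters were made from these same expression values, the folds are a description with no test. Ccng1, a cyclin gene known as a p53 target, stood at 85.1, 103 and 102 CPM against 15.95, 13.5 and 13.6 CPM elsewhere, 5.08-fold, 7.17-fold and 7.04-fold. Ccnd1, the cyclin D1 gene that drives cells out of G1, stood at 319, 331.7 and 315 CPM against 64.3, 82.0 and 86.7 CPM, 4.91-fold, 4.01-fold and 3.60-fold. The predicted gene Gm1141 had the widest range, from 11.8-fold in WT to 3.70-fold in KO B. None of the 10 was one of the fixed markers of any cell type, and Dmrtb1 ranked at 46 among 6342 genes.

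The leading genes were more alike between the KO libraries than between either of them and WT. Of the top 50 genes of each library, KO A and KO B shared 36, WT shared 17 with each of them, and all 3 shared 15. At least 2-fold enrichment was reached by 584 genes in WT, against 167 and 100 in KO A and KO B, and by 75 in all 3. The cells outside the cluster are not the same in the 3 libraries: WT had 427 leptotene-zygotene cells and both KO libraries had 0, while the clusters named Diff_L_Z_SGs1 and Diff_L_Z_SGs2 had 24 and 1 cells in WT and between 335 and 592 in each KO library. Each library's cluster was thus set against a different mix of cells. With a minimum of 10 or 50 CPM, 8 or 3 of the 10 genes stayed among the leading 10.

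**Figure D1:**
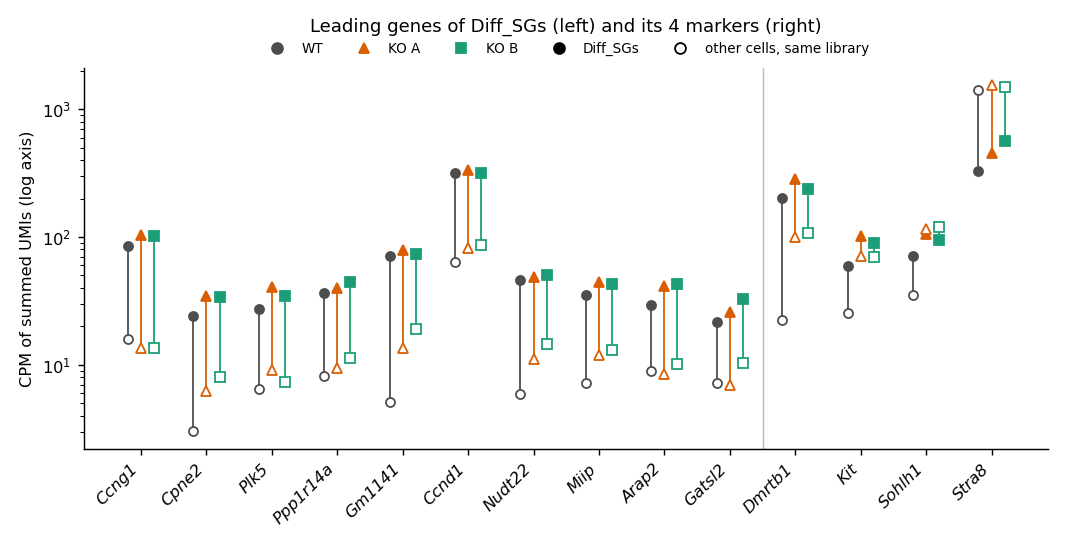
CPM (log axis) of the 10 leading genes and the 4 markers in Diff_SGs (filled) and in all other cells of the same library (open), by library. The 10 leading genes lie above the open symbols in every library, while Stra8 lies below them and Sohlh1 lies above them in WT alone.

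KO and WT were then compared within the cluster. The measure was the mean over cells of UMIs divided by the cell's deposited size factor, here normalised UMIs per cell, and differences were taken between values of log2(value + 0.01), a scale that understates changes of low genes. A mean of 0.05 or more was reached by 9435 genes, of which 271 (2.87%) were higher and 135 (1.43%) were lower in KO at a limma adjusted p under 0.05, and the median log2 difference of all genes tested was 0.03. Higher genes made up 66.7% of the calls. With TMM scaling in place of the deposited size factors the share was 46.8%, from 683 higher and 775 lower calls. Without the lone globin-bearing KO A cell the counts were 355 higher and 220 lower, and all 406 genes remained called. On the recovered UMIs, edgeR called 763 higher (8.09%) and 649 lower (6.88%) and DESeq2 28 higher (0.297%) and 25 lower (0.265%), and with no filter on low values limma called 2 and 1.

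The design limits these calls. The spread comes from the 2 KO libraries, which leaves 1 residual degree of freedom, and WT is taken to vary like them. An exact test of 1 library against 2 cannot go below p = 0.333, so single values have no test of their own. With 1 WT library, genotype cannot be told apart from library, and the labels name no batch. In 6711 genes with at least 20 CPM, 40 differed by 2-fold or more between KO A and WT and 23 between KO B and WT, whereas 4 did so between the KO libraries.

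**Figure D2:**
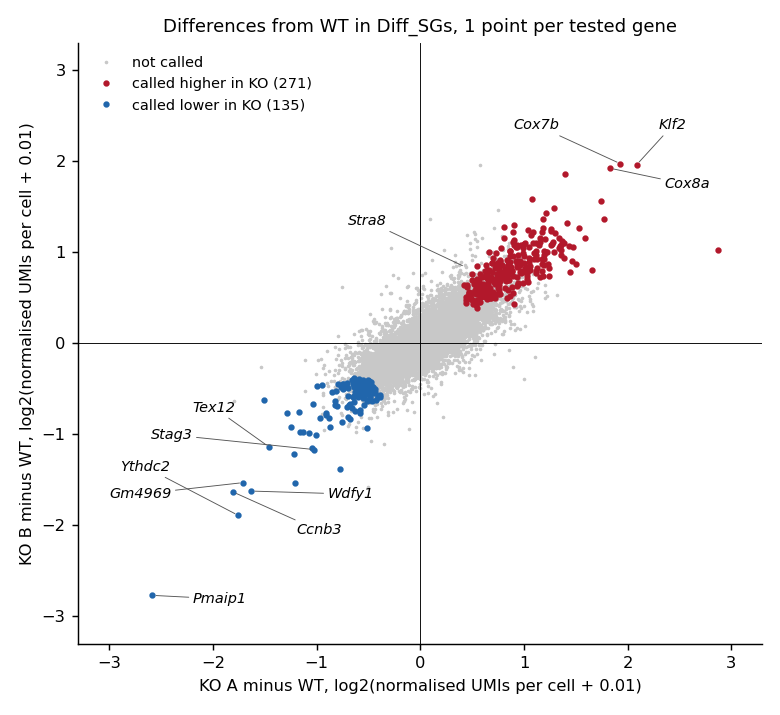
The log2 difference from WT of KO A (horizontal) and KO B (vertical) for each gene tested in Diff_SGs, with called genes coloured; both axes share the single WT library, and 3 genes (Gm10260, Hba-a2 and Hbb-bs) lie outside the axes. Called genes such as Cox7b, Klf2, Ythdc2 and Ccnb3 lie on the same side of WT in both KO libraries.

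The targeted gene was checked first. Ythdc2 stood at 1.95 normalised UMIs per cell in WT, against 0.570 and 0.519 in KO A and KO B. The KO libraries did not overlap WT, and their mean of 0.544 ± 0.0358 (SD, n = 2) was 3.58-fold lower. The log2 difference was -1.82 (SE 0.12, limma adjusted p = 2.2e-05). Thinned to 5000 UMIs, 56.4% of WT cells and 21.7% of the cells of each KO library held a Ythdc2 UMI, so that transcripts counted to the gene remained in the KO. No exon-level values were used, so the reads cannot be placed inside or outside the disrupted part.

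The partners of YTHDC2 were measured next to it, and none of the 3 was called with limma and the deposited size factors. With edgeR, Meioc (adjusted p = 0.0153) was called lower and Xrn1 (adjusted p = 0.0294) higher, as they were with TMM scaling in limma, and DESeq2 called 0 of the 3. Meioc, whose protein binds YTHDC2 and prolongs meiotic prophase, stood at 5.20 in WT and at 3.64 and 4.17 in KO A and KO B (log2 -0.42, SE 0.14, limma adjusted p = 0.102), with both KO libraries below WT. Rbm46, coding for an RNA-binding protein, stood at 3.12, 3.26 and 3.04, with WT between the KO libraries. Xrn1, the 5′ to 3′ exonuclease, stood at 0.815, 1.02 and 1.06 (log2 0.35, adjusted p = 0.101). Of 14 genes for writers, erasers and other readers of m6A, 0 passed with limma. 2 of the 14 had an unadjusted p under 0.05, as did 2283 of all 9435 genes tested. edgeR and DESeq2 called 0, and the median log2 difference of the 14 was -0.06.

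Among the higher genes, the smallest p-values belonged to a pair of subunits of cytochrome c oxidase, the last enzyme of the respiratory chain. Cox7b (X:106015700-106022450, GRCm38) stood at 0.559 in WT, against 2.16 and 2.22 in KO A and KO B. The KO values lay close together and far above WT, 3.92-fold higher (log2 1.95, SE 0.11, limma adjusted p = 7.9e-06). Cox8a (19:7215158-7217616, GRCm38) stood at 1.76, 6.30 and 6.71, 3.69-fold higher and likewise without overlap (log2 1.88, SE 0.13, adjusted p = 2.7e-05). Together with Ythdc2, these were the only named genes, 3 of 44, that kept their call under all 13 alternatives with a test.

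Klf2 (8:72319062-72321654, GRCm38), which encodes a zinc finger transcription factor of the Krüppel-like family, stood at 0.0883 in WT, against 0.407 and 0.372 in KO A and KO B. It rose 4.42-fold (log2 2.02, SE 0.18, limma adjusted p = 1.9e-04), and the sums behind these values were 77, 234 and 377 UMIs. Pgam1, a glycolytic mutase, stood at 0.750, 1.62 and 1.50, 2.08-fold higher. Lonp1, the protease of the mitochondrial matrix, stood at 0.516, 1.21 and 1.04, 2.18-fold higher. In all of these the lower KO library was above WT, which the rule for named genes required.

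The other genes that the rule for named genes took were 1.82-fold to 2.45-fold higher. They are Mtap, which returns the methylthioadenosine of polyamine synthesis to methionine (0.267 in WT, 0.627 and 0.603 in KO), Txn1, the cytosolic thioredoxin (0.883, 1.63 and 1.59), Camk2n1, an inhibitor of CaM kinase II (0.222, 0.547 and 0.541), Fem1b, a substrate receptor of ubiquitin ligases (0.190, 0.410 and 0.445), Ptov1, Pdcl3 and Rflnb. Their adjusted p-values ran from 0.00162 to 0.00605.

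**Figure D3:**
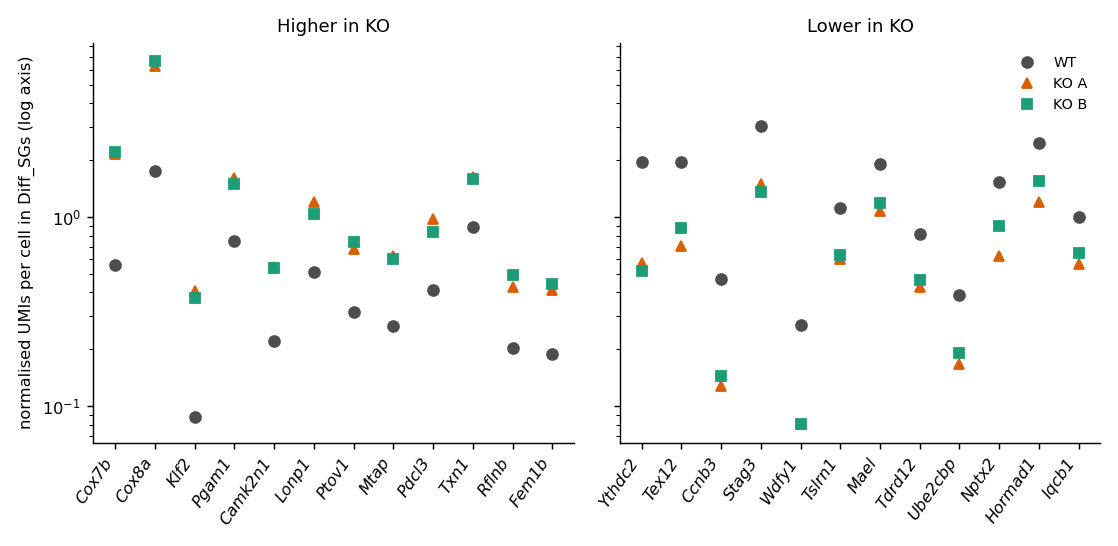
Normalised UMIs per cell (log axis) in Diff_SGs of each library for the 12 genes in each direction with the smallest p among called genes of at least 10 CPM on average and an absolute log2 difference of at least 0.58 and the same direction in KO A and KO B, without predicted genes. Both KO symbols lie on one side of the WT symbol for all 24 genes because the rule required it. The WT symbol stands farthest from them for Klf2, Cox7b, Cox8a, Ythdc2, Ccnb3 and Wdfy1.

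Of the 8 listed genes of differentiating spermatogonia, all tested, 1 rose and 0 fell, and their median was 0.29. Beside the 2.87% higher and 1.43% lower among all genes tested, 1 call in so short a list says little of it. Kit rose from 0.725 in WT to 1.12 in KO A and 1.04 in KO B, 1.49-fold (log2 0.57, SE 0.12, limma adjusted p = 0.0288). Stra8 stood at 3.35, 4.54 and 5.98, with both KO libraries above WT but not past the threshold (log2 0.64, SE 0.17, adjusted p = 0.0531). Without the lone globin-bearing KO A cell it passed with limma (adjusted p = 0.0379). It also passed with edgeR (adjusted p = 0.00898) and not with DESeq2 (adjusted p = 0.237). Sohlh1 (0.836, 1.14 and 1.04, adjusted p = 0.0847) and Dmrtb1 (2.27, 3.01 and 2.52, adjusted p = 0.232) were above WT by value as well, as were Sohlh2 (log2 0.31) and Dnmt3b (0.14). Rhox13 (log2 -0.16) and Crabp1 (-0.04) were below it, and none of these passed. In the shared sub-clusters described further on, Dmrtb1 differed by -0.10. With DESeq2 0 of the 8 were called. The undifferentiated list had 2 genes with enough signal to test, and 0 of them passed with limma. Of the 2, 1 had an unadjusted p under 0.05, as did 2283 of all 9435 genes tested. With edgeR 1 was higher, where 8.09% of all genes were, and with DESeq2 0 were called.

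Of 10 tested genes of retinoic acid handling, 1 rose and 1 fell, with a median of 0.21. Beside the 2.87% higher and 1.43% lower among all genes tested, such single calls say little of the list. Aldh1a2, which makes retinoic acid, fell from 0.547 in WT to 0.286 and 0.318 in KO A and KO B (log2 -0.84, limma adjusted p = 0.0183), with both KO libraries below WT. The receptor genes Rara (log2 0.53, adjusted p = 0.0919), Rarg (0.39, adjusted p = 0.184) and Rxra (0.77, adjusted p = 0.0580) and the degrading enzyme Cyp26b1 (0.11, adjusted p = 0.832) did not pass.

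Of 9 tested genes of meiotic entry, 0 rose, 4 fell and 5 were not called, where 2.87% of all genes tested were higher and 1.43% lower. Their median was -0.64 against 0.03 for all genes. In the shared sub-clusters described further on 2 were called higher and 3 lower, where 6.73% of all genes were higher and 3.04% lower. Meiosin, the partner of STRA8 and listed in the files as Gm4969, stood at 0.234 in WT, against 0.0644 and 0.0743 in KO A and KO B. The sums behind it were 213, 38 and 73 UMIs, and it fell 3.37-fold (log2 -1.62, SE 0.22, limma adjusted p = 0.00576). Ccnb3 (X:6979652-7041635, GRCm38), the cyclin B3 gene of early meiosis, fell 3.46-fold from 0.472 to 0.128 and 0.145 (log2 -1.72, SE 0.19, adjusted p = 0.00105).

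Zcwpw1, which reads histone marks left at recombination sites, fell 1.56-fold from 3.26 to 2.09 in each KO library (log2 -0.64, limma adjusted p = 0.0177). Dmrtc2 fell from 0.251 to 0.142 and 0.0898 (log2 -1.08, adjusted p = 0.0386). Prdm9, which marks those sites (log2 -0.42, adjusted p = 0.118), Figla (-0.65, adjusted p = 0.110) and the cohesin gene Rec8 (0.10, adjusted p = 0.629) did not pass. DESeq2 called 3 of the 9 lower. The STRA8 and MEIOSIN genes, whose proteins act as a pair, therefore stood on opposite sides of WT. The Stra8 difference was short of the threshold with limma in the whole cluster, and passed without the globin-bearing KO A cell.

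The axis of meiotic chromosomes is built from cohesins with STAG3, SMC1B, RAD21L and REC8 and from HORMAD and SYCP proteins, and TEX12 belongs to the central element of the synaptonemal complex. Of the 13 listed genes of this kind 6 fell, and the 250 bases before the transcript start are shown for the 4 of these with the largest difference, as sequence context for genes that moved together. They come from the RefSeq promoter table for GRCm38.p6, read 5′ to 3′ on the gene's strand, with CACGTG in capitals, the E-box that reads the same on both strands. For Stag3 and Rad21l the start in that table lies inside the span of the gene, and for Hormad1 the first of 2 listed promoters is shown.
Tex12, chr9:50561269-50561518, minus strand: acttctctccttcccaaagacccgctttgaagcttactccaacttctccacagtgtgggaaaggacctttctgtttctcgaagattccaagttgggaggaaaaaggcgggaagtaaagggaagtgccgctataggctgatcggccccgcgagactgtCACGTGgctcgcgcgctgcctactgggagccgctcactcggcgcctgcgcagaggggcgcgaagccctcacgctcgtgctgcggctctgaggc
Stag3, chr5:138280259-138280508, plus strand: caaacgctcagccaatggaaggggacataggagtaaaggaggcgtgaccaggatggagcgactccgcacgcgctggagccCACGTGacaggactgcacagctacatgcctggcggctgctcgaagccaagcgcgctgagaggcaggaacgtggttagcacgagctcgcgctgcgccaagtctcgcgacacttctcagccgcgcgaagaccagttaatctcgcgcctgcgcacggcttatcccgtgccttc
Hormad1, chr3:95559427-95559676, plus strand: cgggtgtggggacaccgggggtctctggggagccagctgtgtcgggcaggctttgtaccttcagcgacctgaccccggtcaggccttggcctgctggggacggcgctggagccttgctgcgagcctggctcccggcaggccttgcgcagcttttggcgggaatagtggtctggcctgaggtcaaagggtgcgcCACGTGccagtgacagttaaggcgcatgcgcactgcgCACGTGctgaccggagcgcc
Rad21l, chr2:151668534-151668783, minus strand: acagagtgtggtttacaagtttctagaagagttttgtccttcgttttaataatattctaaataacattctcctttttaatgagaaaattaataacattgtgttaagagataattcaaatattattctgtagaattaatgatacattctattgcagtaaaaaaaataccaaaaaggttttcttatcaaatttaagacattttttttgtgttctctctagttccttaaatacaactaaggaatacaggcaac

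Tex12 holds 1 match, whose first base is 93 bases before the start, Stag3 holds 1 at 170 bases, and Hormad1 holds 2, at 57 and 20 bases. Rad21l holds 0, which says only that these letters are not in this window. CACGTG was found in 6.02% of the 32851 listed promoters of this length. Among genes with a listed promoter it was in 11.0% of those tested, 9.27% of the higher and 19.5% of the lower ones (22 of 113). The share of all promoters counts each promoter, whereas a gene was counted if any of its listed promoters held the word. In the list of meiotic chromosome structure 6 of 13 genes had it in a promoter, and 3 of the 6 that fell. The E2F-like word GCGGGA, searched on both strands, was in 16.9% of all promoters, 37.5% of the tested, 41.0% of the higher and 39.8% of the lower genes. The STRA8 and MEIOSIN word CNCCTCAG, also on both strands, was in 6.42%, 9.05%, 6.34% and 12.4% in that order, and in 0 of the 6 structural genes that fell. A promoter was listed for 79.6% of the tested, 75.6% of the higher and 83.7% of the lower genes. The first 2 lie below the 80% set as the least for such a check, which is therefore void as a comparison of gene sets, and the shares are a description. A match is no evidence of binding.

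Of the 13 listed genes of the axis, cohesin and synaptonemal complex, all tested, 0 rose and 6 fell, with a median of -0.47, and 12 of 13 were below WT by value. Among all genes tested 2.87% were higher and 1.43% lower. Their summed level was 3896 CPM in WT, against 2672 and 2867 in KO A and KO B. Tex12 stood at 1.95 in WT, against 0.703 and 0.878 in KO A and KO B, and fell 2.46-fold (log2 -1.30, SE 0.14, limma adjusted p = 0.00105). Stag3 stood at 3.05, 1.49 and 1.35, and fell 2.14-fold (log2 -1.10, SE 0.12, adjusted p = 0.00105). Hormad1, which marks unsynapsed axes, stood at 2.48, 1.21 and 1.56, and fell 1.80-fold (log2 -0.85, SE 0.15, adjusted p = 0.0129). In none of these did a KO library reach WT, which the rule for named genes required.

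Rad21l fell from 0.133 to 0.0579 and 0.0620 (log2 -1.03, limma adjusted p = 0.0370). Smc1b fell from 8.02 to 5.28 and 5.40 (log2 -0.59, adjusted p = 0.0493), and Sycp2 from 2.62 to 1.83 and 1.95 (log2 -0.47, adjusted p = 0.0468). Sycp1, the transverse filament gene, stood at 13.5, 7.79 and 9.36, below WT in both KO libraries but not past the threshold (log2 -0.66, adjusted p = 0.0717). Sycp3 (log2 -0.10), Syce1 (-0.20), Syce2 (-0.32), Syce3 (-0.47) and Hormad2 (-0.24) did not pass either. DESeq2 called 5 of the 13 lower. In the WT library Tex12 stood at 683 CPM in the leptotene-zygotene cells and 189 CPM in Diff_SGs, and Stag3 at 413 and 266 CPM. The marker list of leptotene-zygotene cells summed to 2916 CPM in WT, against 1901 and 2110 in KO A and KO B inside the cluster. That list shares Sycp1, Sycp3, Syce3 and Hormad1 with the list described, and its part in the result was not tested.

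Of 7 tested genes for double-strand break formation, 0 rose and 1 fell (median -0.42): Mei4, a partner of REC114, from 0.303 to 0.150 and 0.168 (log2 -0.89, limma adjusted p = 0.0297). Ankrd31 (log2 -0.48, adjusted p = 0.0504) and Mei1 (-0.77, adjusted p = 0.0587) missed the threshold. Of 12 tested genes for strand exchange and crossover, 0 rose and 4 fell (median -0.40). Among all genes tested 2.87% were higher and 1.43% lower, and 1 call in so short a list as that of break formation says little of it. The recombinase gene Dmc1 fell 1.43-fold, from 1.04 to 0.714 and 0.739 (log2 -0.51, adjusted p = 0.0393).

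Hsf2bp, a partner of BRCA2, fell from 0.281 to 0.169 and 0.156, and Rnf212, which promotes crossovers, from 0.130 to 0.0578 and 0.0533, while Brca2 itself differed by 0.10 (limma adjusted p = 0.633). DESeq2 called 0 of the break and strand exchange genes. None of 6 telomere attachment genes passed with limma. 3 of the 6 had an unadjusted p under 0.05, as did 2283 of all 9435 genes tested. Without the globin-bearing KO A cell limma called 1 lower. With edgeR 2 were lower, where 6.88% of all genes were, and DESeq2 called 0. Their median was -0.48.

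Of 19 tested S phase genes of the cell cycle, 0 rose and 1 fell, where 1.43% of all genes tested were lower: Rrm2, the small subunit of ribonucleotide reductase, from 1.92 to 1.35 and 1.31 (log2 -0.53, limma adjusted p = 0.0303), with a list median of -0.13. None of 20 M phase genes passed with limma. 2 of the 20 had an unadjusted p under 0.05, as did 2283 of all 9435 genes tested. With edgeR 2 were lower, where 6.88% of all genes were, and DESeq2 called 0. Their summed level was 9247 CPM in WT, against 8671 and 9258 in KO A and KO B. Cdk1 (log2 -0.18, adjusted p = 0.382), Ccnb1 (-0.24, adjusted p = 0.296) and Mki67 (0.00, adjusted p = 0.996) are among them.

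Among genes of the piRNA pathway, which silences transposons in germ cells, 12 were tested, 0 rose and 3 fell (median -0.23). The shares over all genes tested were 2.87% higher and 1.43% lower. Mael, which acts in nuage, fell 1.69-fold from 1.92 to 1.08 and 1.19 (log2 -0.75, limma adjusted p = 0.0110). Ddx4, the mouse vasa helicase, fell from 2.96 to 1.75 and 2.12 (log2 -0.62, adjusted p = 0.0336), and Gpat2 from 1.32 to 0.920 and 0.688 (log2 -0.72, adjusted p = 0.0332). Tdrd12, a tudor gene of the same pathway that is outside the list, fell from 0.810 to 0.427 and 0.463 (log2 -0.85, adjusted p = 0.0110). DESeq2 called 1 of the 12.

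The remaining genes taken by the rule among the lower ones were Wdfy1, Nptx2, Tslrn1, Ube2cbp and Iqcb1. Wdfy1 (1:79702262-79776143, GRCm38), which codes for a protein with a FYVE domain that binds endosomal lipid, had the widest gap of these 5. It fell 3.35-fold, from 0.270 to 0.0803 and 0.0807 (log2 -1.63, limma adjusted p = 0.00349). Nptx2, a secreted pentraxin, fell from 1.53 to 0.621 and 0.896 (log2 -1.03, adjusted p = 0.0129). The other 3 fell 1.66-fold to 2.15-fold.

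Genes of stress responses gave single calls. Of 10 tested genes of the p53 response, 1 rose and 1 fell, and both code for BH3-only proteins that promote apoptosis. Beside the 2.87% higher and 1.43% lower among all genes tested, such single calls say little of the list. Bbc3 (PUMA) rose from 0.137 to 0.272 and 0.217 (log2 0.78, limma adjusted p = 0.0493), and Pmaip1 (NOXA) fell 10.1-fold from 0.147 to 0.0162 and 0.0131 (log2 -2.68, adjusted p = 0.00105). The Pmaip1 sums were 134, 12 and 14 UMIs. Trp53 differed by 0.11 (adjusted p = 0.604) and the cell cycle inhibitor Cdkn1a by 0.14 (adjusted p = 0.700).

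Of 11 immediate early genes, a group that tissue dissociation can also induce, 2 rose, Klf2 and Klf6 (0.190 in WT, 0.321 and 0.317 in KO, limma adjusted p = 0.0393). Among all genes tested 2.87% were higher and 1.43% lower. Fos (log2 -0.37) and Egr1 (-0.48) were below WT by value and did not pass. None of 9 genes of the ATF4 response passed with limma. 2 of the 9 had an unadjusted p under 0.05, as did 2283 of all 9435 genes tested. With edgeR 1 was higher, where 8.09% of all genes were, and DESeq2 called 0. None of 4 genes of MHC class 1 antigen presentation passed with limma. 3 of the 4 had an unadjusted p under 0.05, beside 2283 of all 9435 genes tested. With edgeR 1 was higher and 2 lower, where 8.09% and 6.88% of all genes were, and DESeq2 called 0.

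Of 78 tested nuclear genes of the respiratory chain, Cox7b and Cox8a rose and 1 fell, Uqcrc1 of complex III (4.45 in WT, 2.92 and 3.23 in KO, log2 -0.53, limma adjusted p = 0.0438), and the median was -0.16, with 62 of 78 below WT by value. In this setting these counts are close to the 2.87% higher and 1.43% lower among all genes tested and say nothing particular of the chain. With edgeR 2 of the 78 were higher and 11 lower, where 8.09% and 6.88% of all genes were. With TMM scaling in limma 2 were higher and 14 lower, where 683 and 775 of all 9435 genes were. With DESeq2 2 of the 78 were higher and 0 lower. Of the 13 mitochondrial genes, all 13 were above WT by value and 2 were called (median 0.33): mt-Atp8, from 0.823 to 2.34 and 1.52 (log2 1.19, adjusted p = 0.0114), and mt-Nd6, from 0.0622 to 0.140 and 0.116 (log2 0.93, adjusted p = 0.0456). The limma SE of abundant members was large (1.16 for mt-Co1, 1.04 for mt-Atp6), so that they could hardly pass. The count of 2 is therefore no measure of the list, and edgeR called 4 higher. mt-Atp8 overlaps mt-Atp6, and mt-Nd6 lies on the other strand from its neighbours, so that the split of their UMIs is uncertain. The summed mitochondrial level was 61361 CPM in WT, against 87837 and 66887 in KO A and KO B, which orders the libraries as the mitochondrial share per cell does, and its part in the result was not tested. DESeq2 called 0 of the 13.

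Of 83 cytosolic ribosomal protein genes, 1 rose, Rps4x of the small subunit (0.289 in WT, 0.427 and 0.528 in KO, log2 0.70, limma adjusted p = 0.0393), and 0 fell, no more than the 2.87% and 1.43% among all genes tested. Near-identical processed copies of ribosomal genes make its assignment uncertain. The list's median was -0.22, and its sum was 125112 CPM in WT, against 96871 and 124472 in KO A and KO B.

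**Figure D4:**
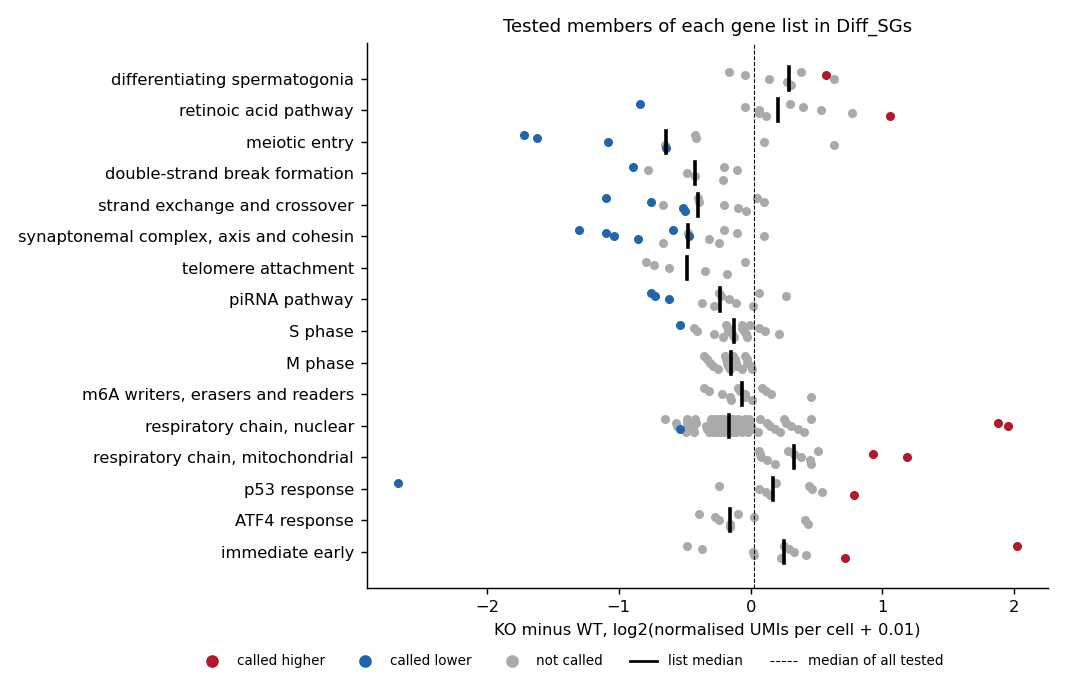
Log2 difference between KO and WT in Diff_SGs for each tested gene (points) of 16 gene lists, with called genes coloured and the list medians as bars. Meiotic lists lie mostly below 0, and in the nuclear respiratory chain list Cox7b and Cox8a stand apart from 76 genes around a list median of -0.16.

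The make-up of the cluster differed between the libraries. Clustered anew (Leiden, resolution 1), the Diff_SGs cells fell into 5 sub-clusters of 537, 403, 376, 346 and 318 cells, and 17 cells lay in smaller pieces. Sub-cluster 5 held 318 WT cells, 48.6% of those in the cluster, and 0 cells of KO A and KO B; with 1 WT library it may be that library, not a type. By fold over the other sub-clusters of all 3 libraries it was led by Gm4969 (3.22-fold), Ube2cbp, Tex12 (2.43-fold), Ccnb3 (2.41-fold), Prss41, Mnd1, Crem and Dmrtc2. Of these, Gm4969, Ube2cbp, Tex12, Ccnb3 and Dmrtc2 were called lower in KO above. The new cluster behind it also took in 18 WT leptotene-zygotene cells. Its part in those calls was not tested. Sub-clusters 1 to 4 held 129, 78, 81 and 48 cells from WT. KO A gave them 232, 174, 70 and 47 cells, and KO B 176, 151, 225 and 251. The sub-clusters were drawn with genes that differ by genotype: of the 406 called genes, 171 (42.1%) were among the 2000 variable genes used, against 17.9% of the genes tested. Their sizes are therefore a description. Depth also set them apart: the median cell of sub-clusters 1 and 2 held between 7929 and 9400.5 UMIs over the libraries, that of sub-cluster 3 between 20412 and 21521, and that of sub-cluster 5 17903.5.

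Compared within sub-clusters 1 to 4 alone, each weighted alike in every library, 637 of 9466 genes (6.73%) were higher and 288 (3.04%) lower in KO with limma, and 256 of the 406 calls were kept. This comparison was chosen after seeing the data. Of the 44 named genes that were called, 34 kept the call and 0 changed sign. Cox7b (log2 2.10), Cox8a (1.68), Klf2 (1.85), Ythdc2 (-1.90), Ccnb3 (-1.64) and Wdfy1 (-1.54) were close to their values in the whole cluster. Stag3 (-0.98), Gm4969 or Meiosin (-1.07, adjusted p = 0.00846), Tex12 (-0.68) and Hormad1 (-0.38, adjusted p = 0.00764) remained called. Of these 10 genes, Wdfy1 and Gm4969 were not among those used to draw the sub-clusters and the other 8 were.

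The 10 that lost the call were Kit (log2 0.29, limma adjusted p = 0.0587), Tslrn1, Mael (-0.28, adjusted p = 0.0507), Ube2cbp, Iqcb1, Dmrtc2, Dmc1 (-0.02, adjusted p = 0.942), Hsf2bp, Rad21l (-0.72, adjusted p = 0.0921) and Rnf212. Meioc, at -0.42 in the whole cluster, differed by 0.00. Of 12 strand exchange genes 1 was called lower, where 6.73% of all genes in this comparison were higher and 3.04% lower. Of the 13 genes of the axis and synaptonemal complex 8 were called lower and 1 higher, the cohesin gene Rec8 (0.49, adjusted p = 0.00363), and their median was -0.38. The 78 nuclear respiratory chain genes had 13 higher and 5 lower calls, above the shares of all genes in both directions, with a median of 0.04. The 83 ribosomal protein genes had 8 higher and 3 lower calls, not far from the shares of all genes, with a median of 0.03. Both medians thus changed sign. That of the mitochondrial genes went to -0.07, with 2 higher and 2 lower calls, and that of the immediate early genes to -0.05.

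Stra8 varied between sub-clusters. In WT it stood at 206, 52.5, 68.8 and 185 CPM in sub-clusters 1 to 4 and at 479 CPM in sub-cluster 5. KO A stood at 406, 199, 552 and 990 CPM and KO B at 467, 270, 613 and 680 CPM in sub-clusters 1 to 4. Both KO libraries were above WT in each of the 4. Stra8 helped to draw the sub-clusters, and those shared leave out the WT cells with the most Stra8, so that this difference is a description with no test. Meiosin (Gm4969) stood at 16.5, 6.18, 9.59 and 18.9 CPM in the WT cells of sub-clusters 1 to 4 and at 29.0 CPM in sub-cluster 5, and no KO value in the 4 was above 10.2 CPM. In sub-cluster 2 the KO A value of 5.60 CPM lay close to that of WT, which came from 78 cells and rests on very few UMIs. Gm4969 was not among the genes used to draw the sub-clusters.

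In each of the 4 shared sub-clusters Cox7b stood lower in WT, between 40.2 and 55.9 CPM, than in the KO libraries, between 162 and 244 CPM. Klf2 stood there between 1.89 and 17.0 CPM in WT and between 26.1 and 47.2 CPM in KO. The lowest WT value came from the 48 WT cells of sub-cluster 4 and rests on very few UMIs. Stag3 stood at 398, 187, 152 and 291 CPM in WT and at 163, 120, 132 and 127 CPM in KO A, so that its gap was narrowest in sub-cluster 3. Hormad1 in sub-cluster 3 stood at 157 CPM in WT, against 169 and 159 in KO A and KO B, with no gap. The lower level of Hormad1 in KO was thus seen in sub-clusters 1, 2 and 4 and not, by value, in sub-cluster 3, whose cells were the deepest.

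**Figure D5:**
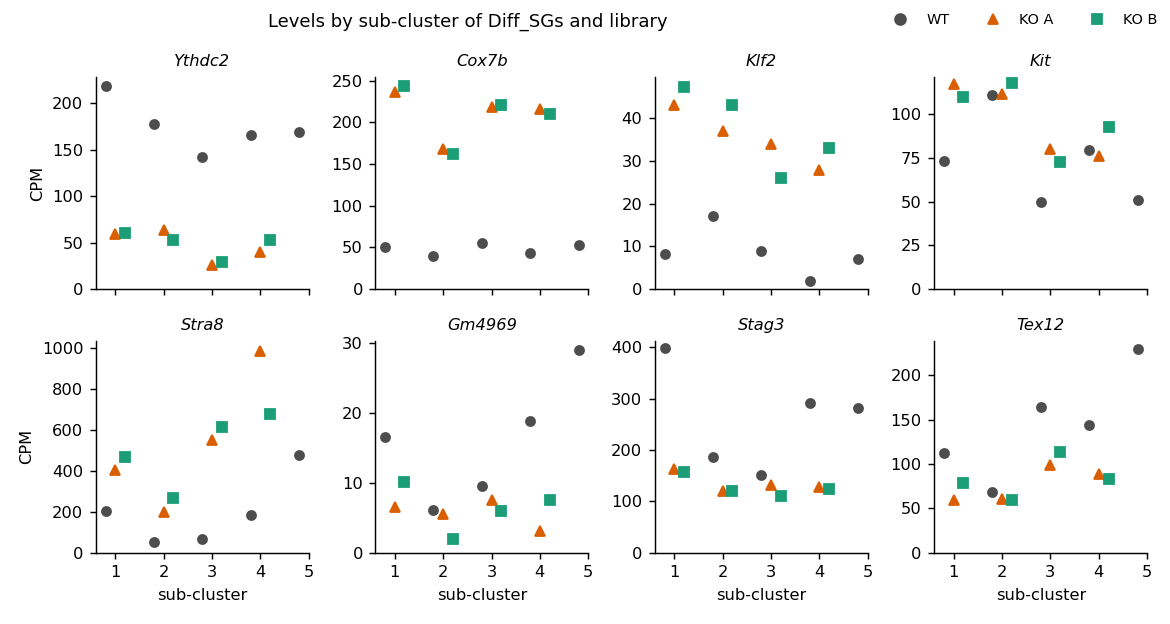
CPM of Ythdc2, Cox7b, Klf2, Kit, Stra8, Gm4969 (Meiosin), Stag3 and Tex12 in sub-clusters 1 to 5 of Diff_SGs, by library; sub-cluster 5 holds WT cells alone. Cox7b and Klf2 lie higher and Ythdc2 lower in both KO libraries in each shared sub-cluster, and Stra8 of WT reaches its highest value, 479 CPM, in sub-cluster 5.

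Finally, the difference between KO and WT in Diff_SGs was set against that in the undifferentiated spermatogonia of the same libraries (45, 66 and 90 cells). Testing the change in Diff_SGs minus that in undifferentiated cells, limma called 0 of 11517 genes higher and 0 lower, with 1573 at an unadjusted p under 0.05. No other tool was run. With a pseudocount of 0.1 the test gave 27 higher and 1 lower, among them Cox7b (adjusted p = 0.0241), Cox8a (0.0322), Klf2 (0.0322) and Ccnb3 (0.0211), the last lower. Of the 44 named called genes, both KO libraries lay on the opposite side of WT in undifferentiated cells for 17, on the same side for 16 and on different sides for 11, with adjusted p-values of the difference from 0.235 to 0.956 at the main pseudocount of 0.01. Klf2 stood at 2.55 normalised UMIs per cell in undifferentiated WT cells and at 1.62 and 1.32 in KO, and Cox8a stood at 11.5, 10.3 and 11.3. Ythdc2 itself stood at 0.426, 0.280 and 0.248, on the same side of WT as in Diff_SGs. Whether the changes are particular to differentiating spermatogonia thus depended on the pseudocount for these 4 genes and was not shown for the other 40.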

How the data were processed

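Single-cell libraries of postnatal day 10 testis cells sorted for 4N DNA content (1 WT, 2 KO) were made with Cell Ranger 3.0.2, mm10/GRCm38 and Scanpy, as the labels' processing notes name them without roles (per the submitters' processing notes). No source used here gives the filters; every cell held at least 3000 genes and under 20% mitochondrial UMIs. The deposited matrix holds natural log values, ln(1 + UMIs/size factor), computed by the authors. In the deposited cell table stand UMI and gene counts per cell, the mitochondrial fraction, a size factor (a score) and the authors' cluster names; a U-motif score stands in the deposited gene table, and its making is not stated. Inverting the log and multiplying by the size factor gave whole UMIs for 100% of values above 0 within 0.001, and 99.9% of the deposited UMIs.

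Mean UMIs over size factor per library (pseudocount 0.01, mean at least 0.05) were fitted with limma 3.58.1 in R 4.3.3. The prior variance followed a trend with level and had 11.0 degrees of freedom, and p-values had a Benjamini-Hochberg adjustment. It was tested on simulated data. limma on means is the main test because the deposited values are logs; edgeR 4.0.16 and DESeq2 1.42.0 on recovered UMIs were alternatives, besides other pseudocounts, filters, scaling, thinning, cell numbers, doublets, other cell types and cluster borders. New clusters used 2000 variable genes, 30 components and 15 neighbours (scikit-learn 1.9.0, leidenalg 0.10.2). Scrublet was run in scanpy 1.11.5.

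Named genes were Kit, Sohlh1, Dmrtb1, Stra8, Ythdc2, Meioc, Rbm46 and Xrn1; the 10 leading genes; in each direction the 12 called genes of smallest p that had an absolute log2 difference of at least 0.58, at least 10 CPM and both KO libraries on one side of WT, without predicted genes; and up to 3 called genes per direction of each list. The cells, lists and rules were chosen with earlier results of these data known. Some genes are not reported here. Gene positions are from RefSeq, GRCm38.p6.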

Additional observations from a re-analysis of the deposited data

How the results depend on the processing

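Genes higher in KO numbered 271 in Diff_SGs and ran from 204 to 355 with a pseudocount of 0.1, a mean of at least 0.2, equal cell numbers, new cluster borders, or without doublets or cells of other types. They numbered 2 with no filter on low values, 527 with cells thinned to 5000 UMIs, 637 in the shared sub-clusters, 683 with TMM scaling in limma, 763 with edgeR, 28 with DESeq2 and 26 with DESeq2 without its filter on low means. Lower genes numbered 135, and 1 with no filter, 232 with a mean of at least 0.2, 88 with equal cell numbers, 220 without cells of other types, 288 in the shared sub-clusters, 775 with TMM scaling, 649 with edgeR, and 25 with DESeq2 with or without its filter. The shared sub-clusters and DESeq2 without its filter were chosen after seeing the data. The loss with no filter goes with 13994 genes tested and a prior of 4.61 degrees of freedom. The cause of the other changes was not tested. Without the globin-bearing KO A cell, 355 of 9431 genes were higher and 220 lower. Lower calls were then 3 for break formation, 5 for strand exchange, 1 for telomere attachment and 4 for the nuclear respiratory chain. Higher calls were then 2 for retinoic acid handling, 2 for differentiating spermatogonia and 1 for meiotic entry. The change in Diff_SGs minus that in undifferentiated cells gave 0 calls in either direction, and 27 higher and 1 lower with a pseudocount of 0.1.

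Of 44 named called genes, 0 changed sign; 41 lost the call with no filter, 17 with DESeq2, 10 in the shared sub-clusters, 5 with thinning, 4 with equal cell numbers, 3 without doublets and 2 with a pseudocount of 0.1. Without either KO library there are no residual degrees of freedom, so values have no test. No paired analysis was possible because the WT group has 1 library and the groups share only 1 replicate number. Depth limits the genes named with few UMIs, such as Pmaip1, with 12 and 14 in KO A and KO B.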

Other observations

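The U-rich motif score that the authors' gene table gives each gene was set beside the calls in differentiating spermatogonia. Its median was 0.012 for the 271 higher genes (quartiles 0.006 to 0.019), 0.016 for the 135 lower genes (0.007 to 0.024) and 0.013 for the 9435 genes tested (0.007 to 0.021), so that the ranges of the 3 groups overlapped almost wholly. No source used here says how the score was made.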
